A study of Mus musculus with 4 samples.

Results

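The 2 mature arms of the mouse hairpin mir-185, mmu-miR-185-5p and mmu-miR-185-3p, were followed across macrophage small RNA libraries by taking the rows of those names. They are 2 of the 847 rows of the deposited count table, and both had reads in every library. The pair was selected on its read counts in these libraries, so the counts and all ratios made from them are a description and no test was made. Macrophages were sorted from the spleen and the bone marrow (BM) of C57BL/6J mice, either 18 days after transfer of GFP+ MLL-AF9 acute myeloid leukaemia (AML) cells without irradiation, or normal. MLL-AF9 is a fusion oncogene, and the question of the series was how microRNAs (miRNAs) of macrophages in leukaemia differ from those at homeostasis. The groups were AML spleen, normal spleen, AML BM and normal BM, with 1 library each and mice labelled 6 to 8 weeks old in all groups. The labels do not give the sort markers, the number of mice per library or whether both tissues came from the same mice.

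A miRNA hairpin is cut into a short duplex, from which Argonaute usually keeps one strand as the guide while the other, the passenger, is degraded. Small RNA sequencing counts both arms, so their balance can be followed apart from the amount of the hairpin. The 5p arm is the usual guide of mir-185. It is known to repress Bruton's tyrosine kinase in mouse B cells, and the scavenger receptor SR-BI and the sterol regulator SREBP-2 in hepatic cells, which links it to cholesterol handling. The hairpin gene Mir185 is intronic: in GENCODE M21 (GRCm38) it occupies chr16:18327401-18327465 on the minus strand, inside an intron of the protein-coding gene Tango2, and overlaps none of the annotated Tango2 exons. The Dgcr8 gene nearby, which encodes a subunit of the hairpin-cutting Microprocessor, holds another miRNA, mir-1306, at chr16:18284239-18284317 on the same strand.

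Of the 2 arms, 1 was matched by name to a mature sequence in RefSeq (GRCm38.p6), as were 673 of the 847 rows. The matched arm is the 3p arm, which is shown with the other matched row that has its seed. Capitals mark the seed, bases 2 to 8, through which a miRNA pairs with its targets.
miR-185-3p: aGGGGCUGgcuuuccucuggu
miR-7048-5p: cGGGGCUGagaggugaggaagc
The miR-185-3p sequence lies at chr16:18327405-18327425 on the minus strand. It is 21 bases long with a GC content of 61.9%, against a median of 49.0% over 208 rows with a RefSeq sequence and at least 30 counts in some library, of which 34 were richer in GC. The seed partner miR-7048-5p, from chr7:25217699-25217720 on the minus strand, had 1 count in the AML BM library and 0 elsewhere.

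Total counts were between 180227 and 435492 per library, and between 505 and 680 rows were detected. Levels are given as CPM, that is counts per 1000000 reads after scaling of libraries with TMM factors, and brackets give 95% exact intervals, which for log2 ratios are conditional on the summed count. Intervals cover counting error only, and with 1 library per group each statement compares libraries and has no replicate check. A row was called different where the libraries differed at least 2-fold with an interval that leaves out 1, given 30 counts or more in the larger. The macrophage and myeloid list (miR-223, miR-142a, miR-146a, miR-155 and miR-21a arms) had 7 of 7 members detected in every library, with a summed level between 28134 and 42807 CPM. Of that sum miR-21a-5p made up 35644 CPM in AML spleen and 13155 in normal spleen, against 23670 in AML BM and 38799 in normal BM. Its myeloid marker miR-223-3p had between 4 and 28 counts per library, and miR-223-5p had 10 in AML spleen and 36 in normal spleen, against 149 in AML BM and 42 in normal BM.

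The 5p arm was higher in the spleen libraries than in the BM libraries, in AML and in normal mice alike. It had 137 counts in AML spleen and 329 in normal spleen, against 96 in AML BM and 87 in normal BM. After scaling these were 710 CPM [596 to 839], 839 CPM [751 to 935], 342 CPM [277 to 418] and 420 CPM [336 to 517] in the same order. Both spleen libraries thus stood above both BM libraries with intervals that did not overlap, while within each tissue the AML and normal intervals overlapped. The order of levels was normal spleen, AML spleen, normal BM and AML BM. From its highest to its lowest library the 5p arm spanned 2.45-fold, less than the median of 3.68-fold over 241 rows with at least 30 counts in some library and reads in all 4.

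The 3p arm varied far more. It had 8 counts in AML spleen and 113 in normal spleen, against 37 in AML BM and 2 in normal BM. The levels were 41.5 CPM [17.9 to 81.7], 288 CPM [238 to 346], 132 CPM [92.9 to 182] and 9.64 CPM [1.17 to 34.8] in that order. Normal spleen was highest, AML BM was next, and their intervals overlapped neither each other nor those of the other libraries. AML spleen and normal BM were the low pair, and their intervals overlapped each other. The 2 counts of normal BM lie under the level of 3 counts, which is 14.5 CPM in that library, whereas the level of AML BM would have given 27.4 counts at that depth and the level of normal spleen 59.8. The span from highest to lowest library was 29.9-fold, a value that rests on those 2 counts. In bulk RNA of sorted cells, fewer cells of a type and less RNA per cell cannot be told apart.

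**Figure D1:**
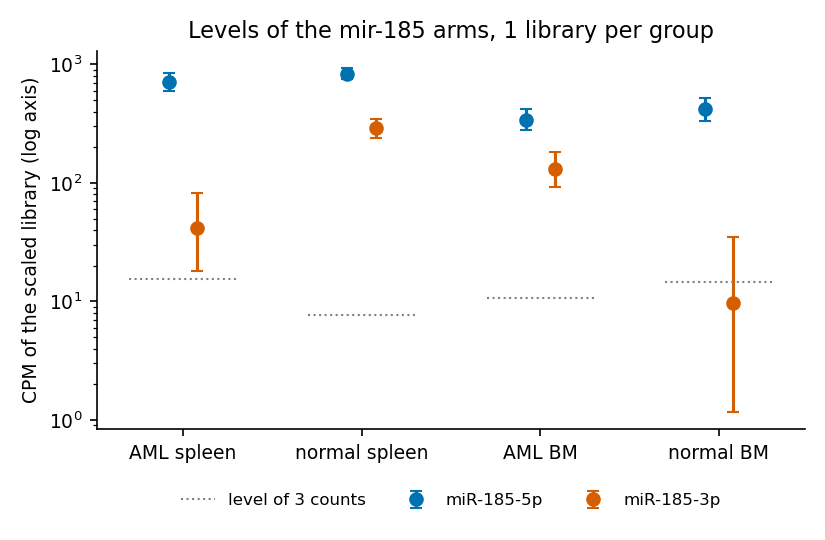
Level of each arm in CPM of the scaled library on a log axis, by library, with 95% exact Poisson intervals as bars. Dotted lines mark the level of 3 counts. The 5p arm is near 710 and 839 CPM in the spleen libraries and 342 and 420 CPM in the BM libraries, while the 3p arm lies between 9.64 and 288 CPM.

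In the BM, the AML library had more of the 3p arm and about as much of the 5p arm as the normal library. For miR-185-3p the log2 ratio of AML BM over normal BM was 3.77 [1.82 to 6.87], or 13.7-fold, from 37 and 2 counts. Of the 216 rows compared 13.4% were called higher. The point value was above that of every other row compared, but it rests on 2 counts, and its interval holds the next value, 3.43 for miR-455-3p. A count of 0 entered ratios as 3, above those 2 counts, which lowers the ratio of any row absent from normal BM. For miR-185-5p the log2 ratio was -0.29 [-0.73 to 0.14], which was not called, and the median of the rows compared was 0.0029. The summed arms came to 474 CPM in AML BM, against 429 in normal BM (log2 ratio 0.14 [-0.25 to 0.55]).

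In the spleen the 3p arm differed the other way. The log2 ratio of miR-185-3p, AML spleen over normal spleen, was -2.80 [-4.04 to -1.77], or 6.95-fold lower, from 8 and 113 counts. Of the 216 rows compared 21.3% were called lower, and 2 had a lower ratio than miR-185-3p, with any count of 0 taken as 3. The 5p arm again was not called, at -0.24 [-0.54 to 0.05], beside a median of -0.25 over all rows compared. The summed arms came to 752 CPM in AML spleen, against 1127 CPM in normal spleen (log2 ratio -0.58 [-0.87 to -0.31]).

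The AML ratios of the tissues thus lay in opposite directions for the 3p arm. On the log2 scale the AML ratio of the spleen minus that of the BM was -6.57 [-9.76 to -4.15] for miR-185-3p and 0.05 [-0.48 to 0.58] for miR-185-5p. Of the 186 rows compared in both tissues 5.91% joined a higher call in AML BM to a lower call in AML spleen, and 15.6% had a gap of at least 4-fold below 0. The gap of miR-185-3p had the lowest point value of the 186, with any count of 0 taken as 3. Its interval holds other rows, such as miR-155-5p at -4.49.

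**Figure D2:**
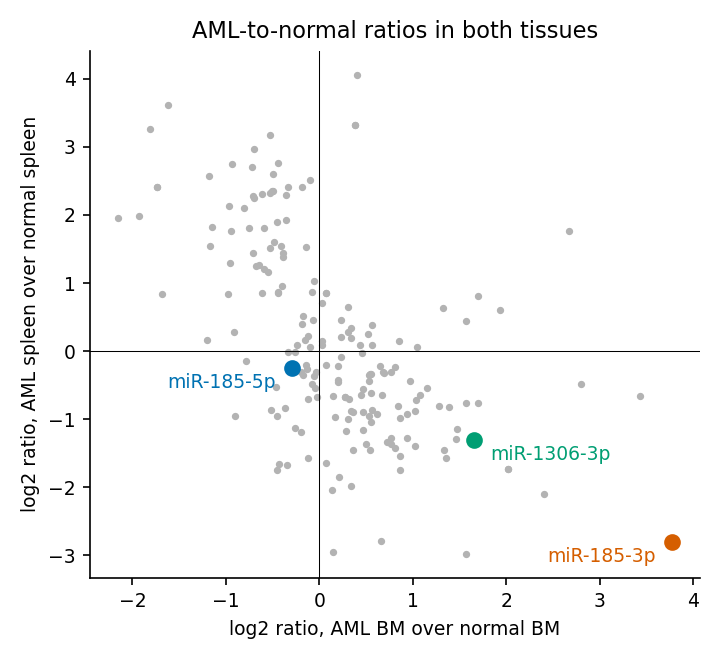
Each point is 1 of the 186 rows compared in both tissues, with the log2 ratio of AML BM over normal BM on the x axis and that of AML spleen over normal spleen on the y axis. The 3p arm lies at 3.77 and -2.80, at the lower right edge, while the 5p arm lies at -0.29 and -0.24 and miR-1306-3p at 1.65 and -1.30.

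The tissue difference of the 3p arm had one direction in the normal libraries and the other in the AML libraries, while that of the 5p arm had the same direction in both. Normal spleen exceeded normal BM by 4.90 [3.01 to 7.96] on the log2 scale for miR-185-3p and by 1.00 [0.66 to 1.36] for miR-185-5p. Of the 234 rows compared 30.8% were called higher. The call of the 5p arm sits at the 2-fold limit, and its log2 ratio was 0.84 with scaling on total counts, below the limit. AML spleen over AML BM gave -1.67 [-2.98 to -0.54] for miR-185-3p, where 21.3% of 211 rows were called lower, and 1.05 [0.67 to 1.44] for miR-185-5p, where 13.7% were called higher. These tissue comparisons reuse the libraries of the leukaemia comparisons and add no separate observations.

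**Figure D3:**
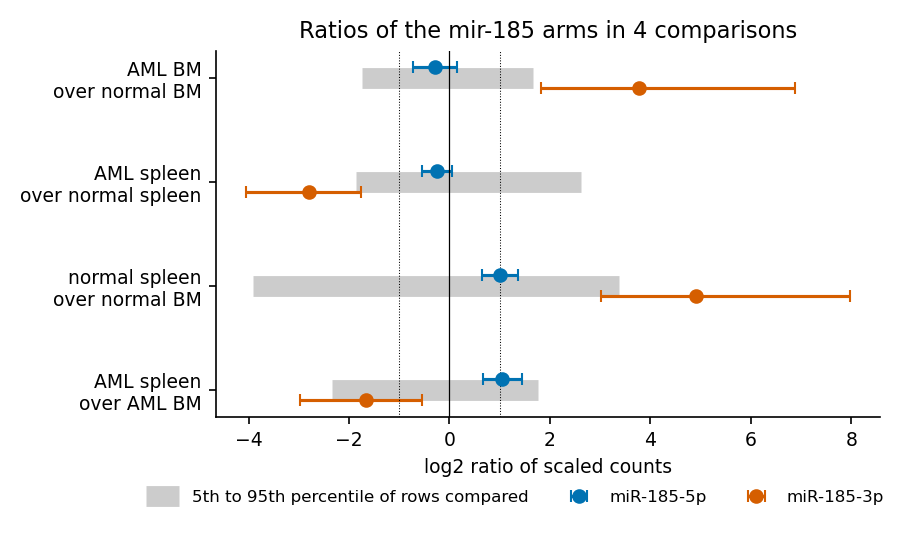
Log2 ratios of both arms in the 4 comparisons with 95% exact conditional intervals. Grey bars span the 5th to the 95th percentile of all rows compared and dotted lines mark 2-fold. The 3p arm is at 3.77, -2.80, 4.90 and -1.67 from top to bottom, and the 5p arm at -0.29, -0.24, 1.00 and 1.05.

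The balance of the arms does not depend on how libraries are scaled. The 3p arm made up 5.52% of the reads of both arms in AML spleen (exact binomial 95% interval 2.41% to 10.6%, 145 reads) and 25.6% in normal spleen (21.6% to 29.9%, 442 reads). It made up 27.8% in AML BM (20.4% to 36.3%, 133 reads) and 2.25% in normal BM (0.273% to 7.88%, 89 reads). There were thus 17.1 reads of the 5p arm for each read of the 3p arm in AML spleen and 2.91 in normal spleen, against 2.59 in AML BM and 43.5 in normal BM. The libraries fell into a pair with over 25% of reads from the 3p arm, normal spleen and AML BM, and a pair with few, AML spleen and normal BM, with no overlap of intervals between the pairs.

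The odds of a 3p read were 16.8 times higher in AML BM than in normal BM [4.08 to 146], a log2 odds ratio of 4.07 [2.03 to 7.19]. Of 96 hairpins with at least 30 reads in both libraries, 11.5% were called toward 3p, and mir-455, at 3.79 [2.46 to 5.48], lay within the interval of mir-185. In AML spleen the odds were 5.88 times lower than in normal spleen, a log2 odds ratio of -2.56 [-3.84 to -1.47]. There 18.0% of 89 hairpins were called toward 5p, and 5 of the 89 lay lower still, with an arm without reads taken as 3 reads. Of those 5, mir-30b at -2.97 and mir-455 at -2.95 were called. The rest were not called and had 0 reads of the 5p arm in AML spleen, for which the rule lowers the ratio. The rule raises the ratio of hairpins that lack 3p reads in AML spleen only, such as mir-130b at 0.99, so the rank depends on it. Normal spleen over normal BM gave 3.90 [1.96 to 6.99] (16.3% of 92 hairpins toward 3p). AML spleen over AML BM gave -2.72 [-4.09 to -1.51], with 1 of 92 lower under the same rule for arms without reads (12.0% toward 5p). Of 86 hairpins compared in both tissues, 6.98% shifted toward 3p in AML BM and toward 5p in AML spleen, each at least 2-fold. These 6 were mir-185, mir-221, mir-30e, mir-340, mir-423 and mir-455, of which mir-30e, mir-221 and mir-423 are named after their values were seen.

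The hairpin mir-455 had a swing close to that of mir-185. Its 3p share was 44.0% in AML spleen and 85.9% in normal spleen, against 22.4% in AML BM and 2.04% in normal BM. In contrast to mir-185, its AML spleen library held more 3p reads than its AML BM library. For mir-340 the shares were 7.56% and 16.8% in AML spleen and normal spleen, against 5.93% and 1.21% in AML BM and normal BM. In the normal libraries some hairpins differed the opposite way: the 3p share of mir-149 in normal spleen was 1.75%, against 31.9% in normal BM. The leukaemia differences of mir-149 were also called opposite to those of mir-185. Its log2 odds ratio was -1.05 in AML BM over normal BM and 2.74 in AML spleen over normal spleen.

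**Figure D4:**
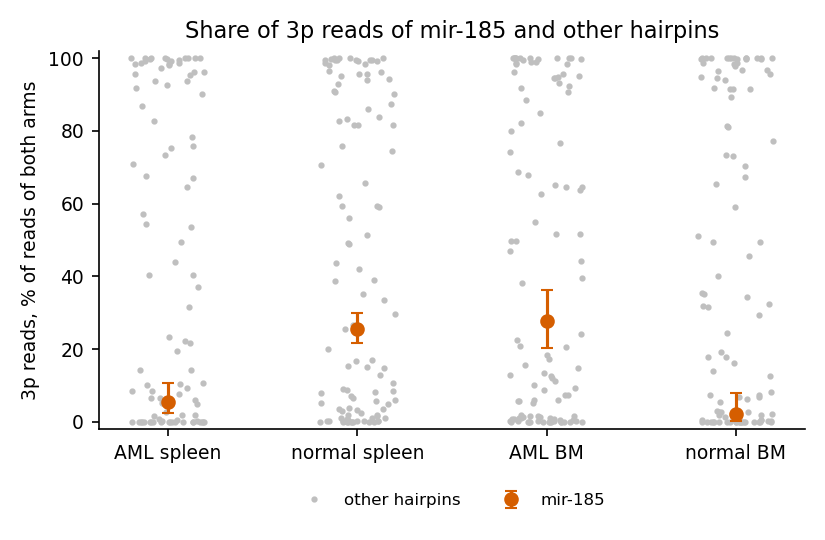
Share of 3p reads among the reads of both arms, in percent, for mir-185 with 95% exact binomial intervals and for the other hairpins with at least 30 reads in the library as grey points. The mir-185 shares are 5.52% and 25.6% in AML spleen and normal spleen, and 27.8% and 2.25% in AML BM and normal BM, within the range of the other hairpins.

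The chromosome 16 neighbour mir-1306 had its 3p arm differ in the same directions as miR-185-3p in the leukaemia comparisons, by less. Counts of miR-1306-3p were 10 in AML spleen and 50 in normal spleen, against 51 in AML BM and 12 in normal BM. Its log2 ratio was -1.30 [-2.44 to -0.30] in AML spleen over normal spleen and 1.65 [0.73 to 2.70] in AML BM over normal BM, and both were called. Counts of miR-1306-5p were 36 in AML spleen and 146 in normal spleen, against 28 in AML BM and 23 in normal BM. Unlike miR-185-5p it stood at -0.997 [-1.57 to -0.46] in AML spleen over normal spleen, just short of 2-fold, and was called with DESeq2 size factors at -1.24. The 3p share of mir-1306 was 21.7% in AML spleen and 25.5% in normal spleen, with overlapping intervals, against 64.6% in AML BM and 34.3% in normal BM, so the spleen libraries did not part on arm balance as they did for mir-185. The AML spleen level of miR-1306-3p was 3.51-fold below that of AML BM (-1.81 [-2.95 to -0.82] in log2). In that comparison the log2 odds ratio of a 3p read was -2.71 for mir-1306, beside -2.72 for mir-185.

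The arms differed in which other miRNAs had the most similar profile over the 4 libraries, measured as the Euclidean distance between centred log2 levels among 240 other rows. The nearest rows to miR-185-5p were miR-671-5p (0.21), miR-186-5p (0.28), miR-378a-5p (0.31), miR-1843a-5p (0.31) and miR-1843b-5p (0.35), beside a median distance of 1.92. The last pair are paralogues whose rows may share reads. The rows nearest to miR-185-3p were further off, at 1.55 for miR-155-5p, 1.78 for miR-339-3p, 1.79 for miR-669c-5p, 1.92 for miR-15b-5p and 1.998 for miR-142a-3p, with a median of 3.73. Of these, miR-155-5p is induced by inflammatory signals in macrophages and miR-142a-3p marks blood cells. The level of miR-155-5p was 492 CPM in AML spleen against 2102 in normal spleen, and 357 CPM in AML BM against 67.5 in normal BM. Of these 5 rows, 4 had a higher level in AML spleen than in AML BM, and miR-669c-5p had 373 against 435 CPM, while miR-185-3p was 3.18-fold lower in AML spleen than in AML BM. The arms themselves lay 3.45 apart, so that miR-185-5p ranked 93 among the rows nearest to miR-185-3p.

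**Figure D5:**
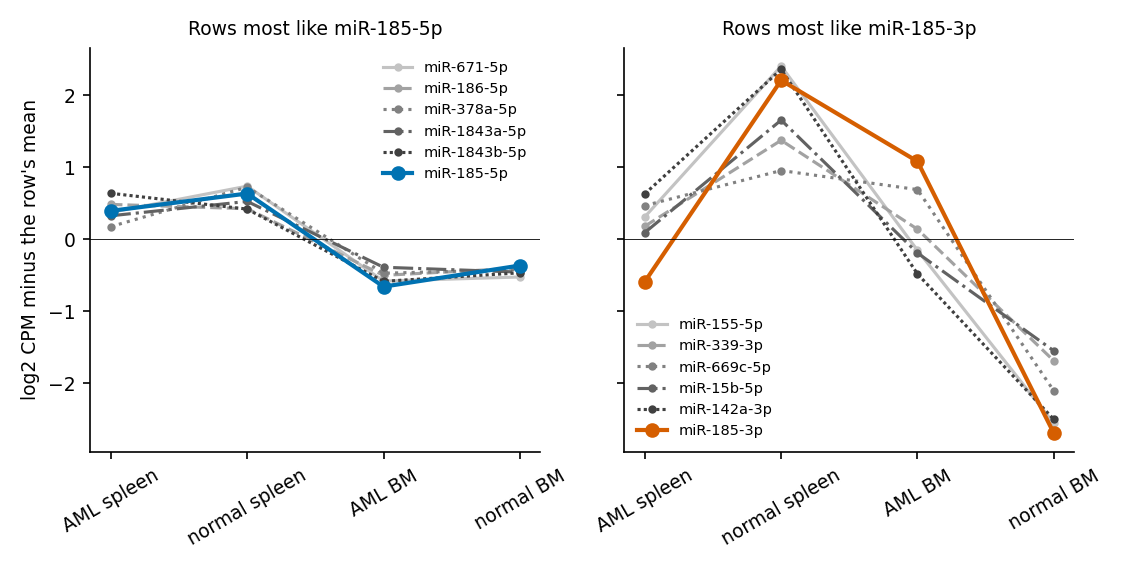
Log2 CPM of each row minus its mean over the 4 libraries, for miR-185-5p (left) and miR-185-3p (right) with the 5 rows nearest to each. The rows on the left stay close together at distances of 0.21 to 0.35, and those on the right lie at 1.55 to 1.998 from miR-185-3p.

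Markers of other cells moved with these libraries. The lymphocyte list (miR-150 arms, miR-181a-5p, miR-181b-5p and miR-342-3p) had 5 of 5 members detected in every library. Its summed level was 46274 CPM in AML spleen against 105930 in normal spleen, and 41754 CPM in AML BM against 16125 in normal BM. Normal spleen was thus highest and normal BM lowest, as for miR-185-3p, but AML spleen stood above AML BM, unlike for miR-185-3p. Of that sum miR-181a-5p made up 33057 CPM in AML spleen and 73049 in normal spleen, against 36519 in AML BM and 13150 in normal BM. Of the 5 members, 2 were called higher and 0 lower in AML BM than in normal BM, and 0 higher and 4 lower in AML spleen than in normal spleen. Over all rows 13.4% were called higher and 12.0% lower in the BM comparison, and 25.0% higher and 21.3% lower in the spleen comparison. In normal spleen 5 members were higher and 0 lower than in normal BM, beside 30.8% of all rows called higher and 35.5% lower. In AML spleen 3 members were higher than in AML BM and 1, miR-181b-5p at -1.27, was lower, as miR-185-3p was. Over all rows 13.7% were called higher and 21.3% lower there. The macrophage and myeloid list had 6 members that could be compared, beside the same shares over all rows. Of these 3 were higher and 0 lower in AML BM than in normal BM, and 1 (miR-21a-5p at 1.44) was higher and 4 lower in AML spleen than in normal spleen. In normal spleen 4 were higher and 2 lower than in normal BM, and in AML spleen 1 was higher and 1 lower (miR-223-5p at -3.36) than in AML BM. Stromal and endothelial miRNAs (7 of 7 detected) summed to 22012 CPM in AML spleen against 3642 in normal spleen, and 22058 CPM in AML BM against 31817 in normal BM. Muscle and liver miRNAs (4 of 4) summed to 14938, 3242, 13520 and 42397 CPM, and leukaemic blast miRNAs (3 of 3) to 30689, 7083, 32542 and 46640 CPM in the same order. The blast sum was highest in normal BM, a library from normal mice, so it did not follow the name of the list. The blast sum also hides miR-196b-5p, which had 5 counts in AML spleen and 34 in normal spleen, against 196 in AML BM and 80 in normal BM. Its log2 ratio was -1.74 in AML spleen over normal spleen, where the other 2 members were called higher, and -4.75 in AML spleen over AML BM. Erythroid miRNAs (5 of 5) summed to between 13937 and 17960 CPM, but single members differed. The log2 ratio of miR-451a was 1.96 in AML spleen over normal spleen, -2.15 in AML BM over normal BM and -3.43 in normal spleen over normal BM. That of miR-144-3p was -3.63 in AML spleen over AML BM, from 2 and 36 counts. No member of these lists was at 0, and the part of these cells in the mir-185 values was not tested. Across rows, which are not independent replicates, Pearson's r of GC content with the log2 ratio was 0.061 and Spearman's rho 0.21 in AML BM over normal BM (183 rows). In AML spleen over normal spleen they were -0.15 and -0.18 (183 rows).

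Other miRNAs known to act on cholesterol and lipoprotein genes moved in various directions. Of the 11 on this list, which holds miR-33, miR-27, miR-148a, miR-128 and others, 7 could be compared between AML BM and normal BM. There 1 was higher, miR-128-3p at 1.08, and 1 was lower, miR-122-5p at -1.17, with a list median of -0.064. Of all rows compared there, 13.4% were called higher and 12.0% lower. Between AML spleen and normal spleen 3 of 7 were higher and 0 lower, with a median of 0.87 beside -0.25 over all rows. Of all rows 25.0% were called higher and 21.3% lower there. The 3 called higher were miR-96-5p at 2.76, miR-122-5p at 1.54, which is also on the muscle and liver list, and miR-27b-3p at 1.16. The last lost its call with DESeq2 size factors, at 0.92, while miR-148a-3p, at 0.87, gained a higher call on total counts, at 1.12. The arms of mir-33, whose gene lies in an intron of the sterol regulator gene Srebf2 and whose 5p arm represses the cholesterol exporter ABCA1, had at most 6 counts in any library and could not be compared. Between normal spleen and normal BM 0 of 6 were higher (30.8% of all rows) and 3 lower (35.5%), with a median of -0.61. Between AML spleen and AML BM 1 of 8 was higher (13.7% of all rows) and 2 lower (21.3%), with a median of -0.067. The medians of -0.064 and -0.067 turned positive, to 0.13 and 0.0038, on totals without the 10 most abundant rows, which also ended the miR-122-5p call in AML BM at -0.97.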

How the data were processed

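Per the file headers, the authors deposited unnormalised read counts for each miRNA in 4 libraries, which were made from total RNA for an Illumina HiSeq machine, per the labels' protocols. TPM values deposited beside them, named so per the file headers, equalled each count divided by its library total times 1000000 with no length term, and were used only for this check. Aligner, counter, genome build and miRNA annotation: not given in the sources used here. Samples were grouped by title. Library sizes were scaled with TMM from edgeR 4.0.16 in R 4.3.3. DESeq2 1.42.0 size factors, total counts and totals without the 10 most abundant rows were alternatives. A count of 0 entered ratios as 3 counts. Intervals came from scipy 1.17.1, and the counts are of reads, not of molecules. The ratio and calling steps were tested on simulated Poisson counts. Changes of 4-fold were set only in rows with an expected count of at least 30 at the depth of the smaller library. The simulation held no variation between replicate libraries, so it does not bear on how far the calls would repeat. Hairpins were paired by row names that differ only in 5p or 3p (199 pairs). Sequences were matched by miRNA name for 673 of 847 rows. No other row matched the counts of either arm within 3% or 2 counts in all libraries. Rows named were both arms, seed partners, mir-1306, the listed miRNAs, the 5 nearest profiles and the 3 hairpins with the largest called arm shift each way, of which those that bear on mir-185 are printed. The arms, lists and rules were chosen with earlier results of these data known.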

Additional observations from a re-analysis of the deposited data

Results flagged for a closer look

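Several results lay at least 2-fold in opposite directions in the 2 tissues, and with 1 library per group none of these differences was tested. As the log2 AML ratio of the spleen minus that of the BM, the gap was -6.57 for miR-185-3p, from 8, 113, 37 and 2 counts in AML spleen, normal spleen, AML BM and normal BM, and -2.95 for miR-1306-3p. Among the rows with the profile nearest to miR-185-3p it was -4.49 for miR-155-5p, -3.75 for miR-142a-3p and -2.92 for miR-15b-5p. Of the cholesterol list, miR-122-5p had a gap of 2.70. For arm balance, the log2 AML odds ratio of a 3p read in the spleen minus that in the BM was -6.62 for mir-185, -6.74 for mir-455, -3.67 for mir-340 and 3.79 for mir-149.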

How the results depend on the processing

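Of 30 values of the mir-185 arms under other scalings, 29 kept their call and stayed within their intervals. The exception was miR-185-5p in normal spleen over normal BM, at 0.84 on total counts. A scaling moves every row of a comparison by the same amount, so these values do not bear on the low counts of miR-185-3p. Scalings shifted the median log2 ratio of all rows by up to -0.24 (DESeq2) and 0.25 (total counts) in AML spleen over normal spleen, by 0.20 in AML BM over normal BM (totals without the 10 most abundant rows), and by 0.24 (DESeq2), 0.18 (totals without the 10 most abundant rows) and -0.16 (total counts) in normal spleen over normal BM. Rows called in AML BM over normal BM were 29 higher and 26 lower, or 39 and 19 on totals without the 10 most abundant rows, and those in AML spleen over normal spleen 54 and 46, or 51 and 68 with DESeq2 size factors. The counts of rows called, 55, 100, 155 and 74 in AML BM over normal BM, AML spleen over normal spleen, normal spleen over normal BM and AML spleen over AML BM, depended on the count minimum. With a minimum of 10 they were 93, 151 and 113 in the first, second and last, with 100 they were 24, 64, 96 and 37, and with none 119, 179, 259 and 141. Hairpins with a called arm shift were 19 and 28 in the leukaemia comparisons of BM and spleen, and 12 and 18 with at least 100 reads, a minimum that mir-185 misses in normal BM. By Pearson's r in place of distance, 1 of the 5 rows nearest to miR-185-5p and 0 of those nearest to miR-185-3p remained. No paired analysis was possible because each group has 1 library. The 2 counts of miR-185-3p in normal BM and 8 in AML spleen limit every ratio that uses them.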
